A study of Mus musculus with 9 samples.

Results

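Among the RNAs of the mouse embryonic cortex, 4 mitochondrially encoded messenger RNAs, mt-Nd4, mt-Nd5, mt-Nd6 and mt-Atp6, were followed across 3 comparisons of Zbtb7a genotypes. They were picked by gene name because they appear in the authors' deposited tables of changed genes, so the fold changes and adjusted p-values below chose them and are given as a description. They are 4 of 13 mitochondrial genes that encode protein, 4 of 37 annotated mitochondrial genes in all, and 4 of 1030 genes listed in any of the tables. The study sequenced polyadenylated RNA from 9 cortices at embryonic day 12, 3 per genotype, which came from 2 litters. Which embryo came from which litter is not in the labels. Wild-type embryos (WT) were Emx1 Cre/+ with Zbtb7a +/+, conditional heterozygotes (cHet) were Emx1 Cre/+ with Zbtb7a fl/+, and conditional knockouts (cKO) were Emx1 Cre/+ with Zbtb7a fl/fl. All groups, the WT group included, carried Cre at Emx1, a gene of dorsal telencephalic progenitors, so cells of other origin in the dissected tissue keep their Zbtb7a alleles. Zbtb7a is the gene of a zinc finger transcription factor with a BTB domain, and the design asks what changes where Cre can remove 1 allele of it or both.

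The mitochondrial genome is a small circle that is copied into long RNAs from both of its strands and then cut at the transfer RNAs between the genes. Its messenger RNAs encode core subunits of the respiratory chain, and all other subunits come from nuclear genes. mt-Nd4, mt-Nd5 and mt-Nd6 encode subunits of the membrane arm of complex I, the NADH dehydrogenase that pumps protons. mt-Atp6 encodes subunit a of the ATP synthase, complex V, which forms the path for protons beside the turning ring. Most mitochondrial messages receive a short poly(A) tail, which for some of them also completes the stop codon. In human cells the ND6 message is known to be the exception that lacks such a tail.

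All 4 genes are single-exon genes of the mitochondrial genome with no annotated intron or untranslated region. In GENCODE M21, on the assembly of mm10, mt-Atp6 spans positions 7927 to 8607 and mt-Nd4 spans 10167 to 11544 on the forward strand. mt-Nd5 spans 11742 to 13565 on the forward strand, and mt-Nd6 spans 13552 to 14070 on the reverse strand. The lengths are 681, 1378, 1824 and 519 bp in that order, and mt-Nd5 is the longest of the 13 protein-coding genes. mt-Nd6 is the only one of the 13 on the reverse strand, and its base composition is the mirror of the others, with 28.1% G and 5.97% C against 9.98% G and 27.1% C in mt-Nd5. The last 60 bases of each gene are shown because the end decides what a poly(A) tail, where a message has one, has to supply. Capitals mark the final codon, or what the genome holds of it. They cover chrM:11485-11544 for mt-Nd4, chrM:13506-13565 for mt-Nd5, chrM:13552-13611 on the reverse strand for mt-Nd6 and chrM:8548-8607 for mt-Atp6.
mt-Nd4: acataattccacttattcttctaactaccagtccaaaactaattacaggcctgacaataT
mt-Nd5: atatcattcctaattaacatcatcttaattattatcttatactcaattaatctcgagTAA
mt-Nd6: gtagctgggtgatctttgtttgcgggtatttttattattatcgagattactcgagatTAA
mt-Atp6: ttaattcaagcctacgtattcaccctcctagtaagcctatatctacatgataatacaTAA
The reading frame of mt-Nd4 ends 1 base into its stop codon, while the other members carry a whole TAA.

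The ends of mt-Nd5 and mt-Nd6 overlap on opposite strands. The last 30 bases of each, read in its own direction, are shown next, with the 14 shared bases, chrM:13552-13565, in capitals.
mt-Nd5: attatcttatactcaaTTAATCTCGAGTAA
mt-Nd6: tttattattatcgagaTTACTCGAGATTAA
The capitals are the reverse complement of each other. Whether the authors' counting used strand is not given in the sources used here, and without strand, RNA from the forward strand that runs through the mt-Nd6 region cannot be told apart from mt-Nd6 itself. Within their own strand, mt-Atp6 shares 43 bp with mt-Atp8 and 1 bp with mt-Co3, and mt-Nd4 shares 7 bp with mt-Nd4l.

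Against WT, cHet cortices had less RNA from the 2 neighbouring genes at the end of the complex I cluster. For mt-Nd5 the authors' deposited table gave -1.44 on the log2 scale (SE 0.30, 3 libraries per group). The 95% interval computed from that SE ran from -2.02 to -0.86. On a linear scale the mt-Nd5 level in cHet was 0.368 of that in WT, with an interval from 0.246 to 0.550. For mt-Nd6 the authors' deposited table gave -1.24 (SE 0.30), a ratio of 0.422 with an interval from 0.280 to 0.635. Their adjusted p in the DESeq2 Wald test of the authors' deposited table was 7.0e-04 for mt-Nd5 and 0.0085 for mt-Nd6. The 2 values differed by less than the SE of either. Whether they measure separate RNAs is not known, because the use of strand in the counting is not given. Of the mitochondrial messages, 2 of 13 were lower and none was higher, beside 0.789% of 15465 tested genes that were lower. That share is printed for scale only, because the genes were chosen from this contrast. In tissue RNA, fewer cells of a type and less RNA per cell cannot be told apart.

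Against cKO, cHet cortices had less RNA from all 4 genes. The authors' deposited table gave log2 values of -1.40 (SE 0.30) for mt-Nd5 and -1.19 (SE 0.30) for mt-Nd6. Relative to cKO this is a ratio of 0.379 for mt-Nd5, with a 95% interval from 0.253 to 0.566, and of 0.437 for mt-Nd6, from 0.291 to 0.658. The other members stood lower with wider errors. For mt-Nd4 the authors' deposited table gave -1.47 (SE 0.48), a ratio of 0.362 with an interval from 0.190 to 0.692. For mt-Atp6 it was -1.92 (SE 0.59) in the authors' deposited table, a ratio of 0.263 with an interval from 0.118 to 0.586. Every interval lay below a ratio of 1, which the threshold for listing already required. Here 4 of 13 mitochondrial messages were lower and none higher, beside 4.14% of 13375 tested genes that were lower, again from the contrast that chose them.

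The adjusted p in cHet against cKO was 6.9e-04 for mt-Nd5 and 0.0084 for mt-Nd6 in the authors' deposited table, from the DESeq2 Wald test. It was 0.031 for mt-Atp6 and 0.041 for mt-Nd4 in the authors' deposited table. By adjusted p the genes ranked 41, 116, 471 and 687 among 971 listed genes. mt-Nd5 and mt-Nd6 thus lay under 0.01, while mt-Nd4 and mt-Atp6 were closer to the threshold of 0.05. By size the order was another, since mt-Atp6 had the 26th largest decrease among 554 lower genes, mt-Nd4 the 48th, mt-Nd5 the 55th and mt-Nd6 the 87th. The median of the 4 members was -1.43 with a median SE of 0.39, and that of all 554 lower genes was -0.82 with a median SE of 0.25. Listing needed an absolute statistic of 2.91, so the larger SEs of the members alone call for larger listed changes, and nothing is read from the gap.

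The intervals of the members overlapped. The interval of mt-Atp6, from -3.08 to -0.77 on the log2 scale, held the values of the other members. The interval of mt-Nd6, from -1.78 to -0.60, held those of mt-Nd4 and mt-Nd5 but not that of mt-Atp6. These values come from the same libraries, so their errors are not independent, and no test of a difference between members was made. Only 17 of 971 listed genes had a larger SE than mt-Atp6 and 33 a larger one than mt-Nd4, against 154 for mt-Nd5 and 143 for mt-Nd6.

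**Figure D1:**
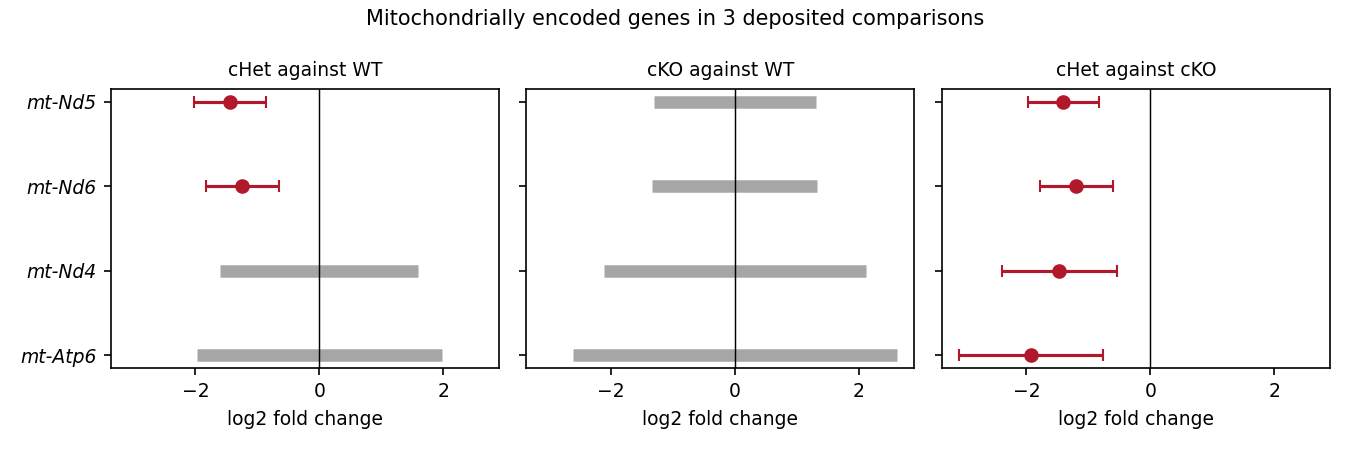
Log2 fold change (x axis) of the 4 mitochondrial genes (rows) in the panels for cHet over WT, for cKO over WT and for cHet over cKO. Red points are the deposited values with 95% intervals; grey bars span the changes that would have stayed under the listing threshold. All red points lie between -1.92 and -1.19, and no gene has a red point in cKO against WT.

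Between cKO and WT, none of the 4 genes was listed, where 0.0148% of 26976 tested genes were. mt-Nd5 and mt-Nd6 were listed in both cHet tables, which share the cHet libraries, and this gives their change of cKO over WT by subtraction. For mt-Nd5 the difference of the deposited values was -0.04 on the log2 scale, and for mt-Nd6 it was -0.05. With an SE taken as the mean of the 2 deposited ones, the 95% interval was -0.62 to 0.54 for mt-Nd5 and -0.64 to 0.54 for mt-Nd6. The level of mt-Nd5 in cKO was thus 0.972 of that in WT, and a change within the interval could not be detected at this precision. The same ratio was 0.965 for mt-Nd6. The subtraction assumes that the tables come from a common fit. In all, 190 genes were listed in both cHet tables, 76.6% of those listed against WT, and 95 of them were lower in both. Over these 190 genes the median absolute difference from the same subtraction was 0.067 on the log2 scale. Joint listing and a small difference were therefore common among listed genes and are not particular to mt-Nd5 and mt-Nd6. For these 190 genes the SEs of the 2 tables had a median ratio of 0.999, and the ratios ranged from 0.988 to 1.01.

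For an unlisted gene, the table sets a limit on its estimated change if the gene was tested and had the SE seen in cHet against cKO. Beside the 4 listed genes, 1 more would have needed an absolute statistic of 4.43 in cKO against WT. That is a log2 change of 1.31 for mt-Nd5, 1.33 for mt-Nd6, 2.11 for mt-Nd4 and 2.61 for mt-Atp6. In cHet against WT the statistic needed was 3.35, or a log2 change of 1.60 for mt-Nd4 and 1.97 for mt-Atp6. The absence of mt-Nd4 and mt-Atp6 from that table therefore leaves room for decreases in cHet as large as those listed against cKO. Both limits can be joined with the cHet against cKO value, taken as exact. The estimated log2 change of cHet over WT then lay between -1.60 and 0.65 for mt-Nd4 and between -1.97 and 0.69 for mt-Atp6. That of cKO over WT lay between -0.13 and 2.11 for mt-Nd4 and between -0.05 and 2.61 for mt-Atp6. These are limits on estimates and not on the changes themselves, because the SEs of 0.48 for mt-Nd4 and 0.59 for mt-Atp6 are left out. For mt-Nd4 and mt-Atp6 the tables do not tell whether cHet stood below WT, cKO above it, or both, whereas for mt-Nd5 and mt-Nd6 cHet was listed below both other groups.

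Nuclear copies of mitochondrial DNA share sequence with some of these genes, and the members differed in this. An array of annotated pseudogenes on chromosome 1, from 24611535 to 24616197, holds annotated copies of 7 mitochondrial messages at 99.7% identity or more. Gm10925, at chr1:24613974-24614651, matched mt-Atp6 at 100% over 678 of its 681 bases. Gm28439, at chr1:24611535-24612410, matched mt-Nd4 at 100% over its first 876 bases. The closest copy of mt-Nd5 was Gm4076 on chromosome 13, at 95.2% over 954 bp, and that of mt-Nd6 was Gm11408 on chromosome 4, at 93.6% over 519 bp. None of the annotated nuclear copies with at least 90% identity over 100 bp was listed in any table.

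Sequences show the contrast between an exact and a diverged copy. The first 60 bases of mt-Atp6, chrM:7927-7986, and of Gm10925, chr1:24614592-24614651 on the reverse strand, are the same in every letter and so carry no capitals.
mt-Atp6: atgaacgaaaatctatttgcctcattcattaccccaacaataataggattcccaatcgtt
Gm10925: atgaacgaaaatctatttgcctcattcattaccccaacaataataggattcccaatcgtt
For mt-Nd5 and mt-Nd6, the 60-base windows with the most mismatches are shown, and capitals mark the mismatched bases. They are chrM:12642-12701 beside chr13:85127260-85127319 (reverse strand), with 9 mismatches, and chrM:13757-13816 beside chr4:80003601-80003660 (both reverse strand), with 11 mismatches.
mt-Nd5: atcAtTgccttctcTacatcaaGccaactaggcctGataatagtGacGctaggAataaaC
Gm4076: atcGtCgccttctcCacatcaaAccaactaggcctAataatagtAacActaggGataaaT
mt-Nd6: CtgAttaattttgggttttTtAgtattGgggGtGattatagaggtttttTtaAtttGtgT
Gm11408: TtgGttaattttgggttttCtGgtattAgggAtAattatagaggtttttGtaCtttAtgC
In mt-Nd4 the annotated copy stops inside the gene. The bases around that point, chrM:11013-11072, are shown with the part beyond the copy in capitals.
mt-Nd4: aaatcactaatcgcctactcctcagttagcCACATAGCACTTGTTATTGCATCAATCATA

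Counted over all stretches of 100 bases, 100% of those in mt-Nd5 and mt-Nd6 had no exact copy among annotated nuclear transcripts. The share was 39.2% in mt-Nd4 and 0.515% in mt-Atp6. A read inside a copied stretch fits both places equally well. How the authors' counting treated such reads is not given in the sources used here, and nuclear DNA outside annotated transcripts was not searched. The values of mt-Atp6 and mt-Nd4 are therefore uncertain over much of their length. The read length is unknown, and for stretches of 50 bases mt-Nd5 shares this in part, with 92.4% lacking a copy, while mt-Nd6 stayed at 100%. The SEs of the cHet against cKO table followed the reverse order, lowest for mt-Nd5 and mt-Nd6, higher for mt-Nd4 and highest for mt-Atp6. With 4 genes this is a description, and the part of the copies in the SEs was not tested.

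**Figure D2:**
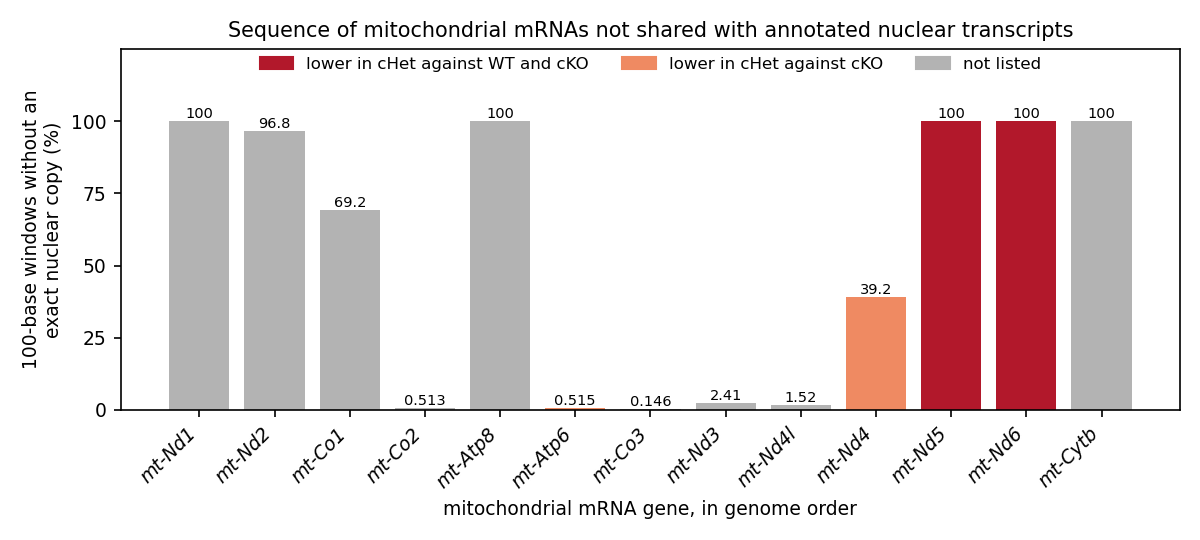
Share of 100-base windows with no exact copy among annotated nuclear transcripts (y axis, percent) for the 13 mitochondrial messages in genome order (x axis). Dark red bars are the genes lower in both cHet tables, light red bars those lower in cHet against cKO, and grey bars genes not listed; mt-Nd5 and mt-Nd6 stand at 100%, mt-Nd4 at 39.2% and mt-Atp6 at 0.515%.

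The other mitochondrial genes were not listed in any of the tables. These are 9 messages, mt-Nd1, mt-Nd2, mt-Nd3, mt-Nd4l, mt-Co1, mt-Co2, mt-Co3, mt-Atp8 and mt-Cytb, together with 22 transfer RNA genes and 2 ribosomal RNA genes. Among unlisted messages the share of windows without a copy in annotated nuclear transcripts was 100% for mt-Nd1, mt-Atp8 and mt-Cytb, 96.8% for mt-Nd2 and 69.2% for mt-Co1. For mt-Atp8 this share may be too high. It lies between mt-Co2 and mt-Atp6, which both have copies in the pseudogene array, and the array between its annotated copies was not searched. It was at most 2.41% for mt-Co2, mt-Co3, mt-Nd3 and mt-Nd4l. mt-Nd4, mt-Nd5 and mt-Nd6 follow each other on the genome, and the unlisted mt-Cytb is the next message. Only transfer RNA genes lie between mt-Nd4 and mt-Nd5, while mt-Nd5 and mt-Nd6 overlap on opposite strands. A gene missing from a table is not shown to be unchanged, and the levels and SEs of these genes were not analysed here.

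Set by complex, the members were subunits of complexes I and V. In cHet against cKO, 3 of 7 mitochondrially encoded subunits of complex I and 1 of 2 of complex V were lower. The mitochondrially encoded gene of complex III and the 3 of complex IV were not listed. Of the nuclear subunits, 8 of 37 were lower for complex I, 2 of 9 for complex III and 3 of 18 for complex V, with 0 of 4 for complex II and 0 of 15 for complex IV, beside 4.14% of all tested genes. None of the 83 nuclear subunits was higher. In the authors' deposited table the 13 that fell spanned log2 fold changes from -1.03 to -0.58, with a median of -0.86. The 4 mitochondrial values, from -1.92 to -1.19, are not set against these as a result, because the members were chosen from this table and genes with a larger SE could be listed only with a larger change. The largest of them was Ndufs4, an accessory subunit of the complex I peripheral arm, for which the authors' deposited table gave -1.03 (SE 0.29). In cHet against WT, where mt-Nd5 and mt-Nd6 were listed, 0 of 83 nuclear subunits were, beside 1.6% of all tested genes. A count of 0 is near that share and is not read as a result about the subunits. Listing needed a statistic of 3.35 there and 2.91 in cHet against cKO, and the difference between the tables was not tested.

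**Figure D3:**
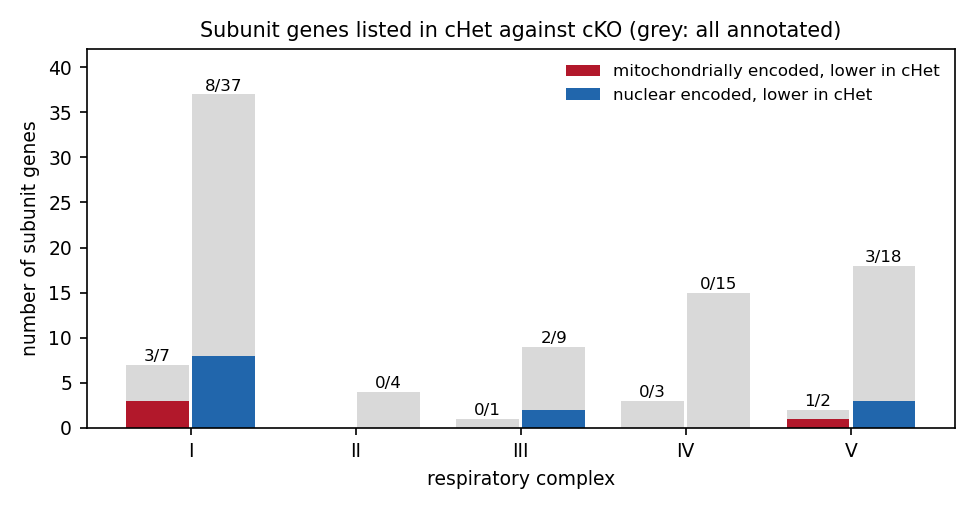
Number of subunit genes (y axis) of respiratory complexes I to V (x axis), split by the genome that encodes them. Coloured bars count genes lower in cHet against cKO and grey bars all annotated genes, with 3 of 7 mitochondrial and 8 of 37 nuclear genes lower for complex I and none for complexes II and IV.

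**Figure D4:**
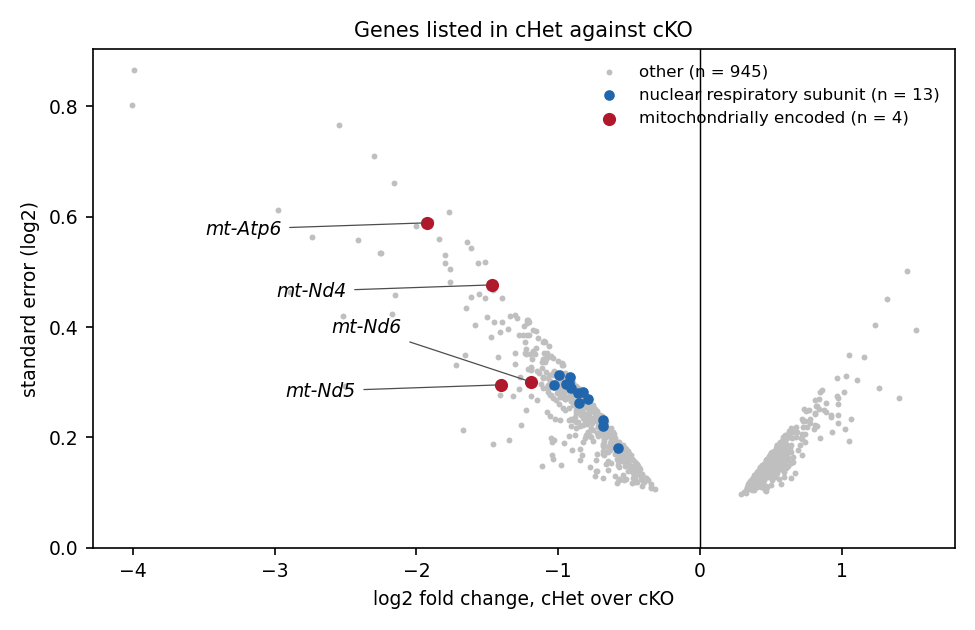
Log2 fold change of cHet over cKO (x axis) against its standard error (y axis) for genes listed in that table; 9 genes with an SE of 1 or more are not shown. The 4 mitochondrial genes lie at or below -1.19 and the 13 nuclear respiratory subunits between -1.03 and -0.58. The gap is not a result, because the mitochondrial genes were chosen from this comparison and a larger standard error calls for a larger listed change.

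The lists of genes that act on mitochondrial RNA and DNA gave few calls. Tested genes in general gave few as well, with 7.26% listed in cHet against cKO and 1.6% in cHet against WT. Of 20 genes for mitochondrial DNA maintenance and transcription, 1 was higher in cHet than in cKO and none was lower. It was the helicase gene Twnk, named Peo1 in the tables, with 0.44 (SE 0.15) by the authors' deposited table. The mitochondrial RNA polymerase gene Polrmt and the packaging factor gene Tfam were not listed. Of 27 genes of mitochondrial RNA processing and stability, 1 was lower, Fastkd2, at -0.54 (SE 0.18) in the authors' deposited table. That list is not complete. Dhx30, at 0.47 (SE 0.16), and Trnt1, at -0.49 (SE 0.17), also act on mitochondrial RNA and were listed in cHet against cKO. FASTKD2 binds RNA in mitochondrial RNA granules. Of 10 regulators of mitochondrial biogenesis, 1 was higher in both cHet tables, Pprc1, a coactivator related to PGC-1. Pprc1 had 0.52 (SE 0.12) against WT and 0.51 (SE 0.12) against cKO in the authors' deposited tables.

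Further calls in cHet against cKO came from lists of assembly, content and stress genes. No list held the assembly factors of complex IV. Such genes, Coa3, Coa4 and Cox14 among them, were also lower in cHet than in cKO, and they are not in the counts below. Of 20 annotated assembly factors of complexes I and V, 3 were lower, Ndufaf5 at -0.88 (SE 0.28), Ndufaf4 at -0.65 (SE 0.21) and 1110001J03Rik at -0.98 (SE 0.33) in the authors' deposited table. Of 15 genes for channels, carriers, import receptors and matrix enzymes, 1 was lower, the import receptor gene Tomm20, at -0.90 (SE 0.30) in the authors' deposited table. Of 20 mitochondrial stress genes 1 was higher, the chaperone gene Hspd1, with 0.44 (SE 0.15) by the authors' deposited table. In all of these lists, Pprc1 was the only gene listed against WT. These shares, too, are read against 7.26% of tested genes listed in cHet against cKO and 1.6% in cHet against WT.

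RNA with little or no poly(A) tail was examined because the libraries were enriched for poly(A). Of 36 such genes, mostly replication histones, 3 were lower in cHet than in cKO and none in cHet than in WT, beside 4.14% and 0.789% of all tested genes. In the authors' deposited table Hist3h2ba had -0.99 (SE 0.23), Hist1h2bc -0.71 (SE 0.24) and Hist1h4c -1.41 (SE 0.39). Malat1, whose RNA also lacks a usual poly(A) tail, is not in the counts and had -1.10 (SE 0.35) in cHet against cKO. With so few members the count is no result about the list, and the part of such RNAs in the mt-Nd6 value was not tested.

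Some markers of cell types were listed in the cHet tables as well, where 1.6% of all tested genes were listed against WT and 7.26% against cKO. Against WT, 5 of 17 early cortical neuron genes were lower and 1 was higher, 7 of 18 ventral telencephalon genes were lower, and of 16 radial glia genes 4 were higher and 1 was lower. Against cKO these counts were the same, though the ventral genes were not all the same ones, and in addition 7 of 19 endothelium and pericyte genes and 6 of 19 mesenchyme genes were higher. Among 12 erythroid genes 1 was lower in the authors' deposited table, Hbb-y with -0.74 (SE 0.24), and among 15 macrophage genes 1 was, Pf4 with -1.11 (SE 0.29), shares near that background. The Y-linked gene Eif2s3y had -24.80 (SE 3.91) against WT and -23.04 (SE 3.91) against cKO in the authors' deposited tables, a fitted size that gives no readable fold. No other Y-linked gene was looked up, and the sex of the embryos is not in the labels. Levels of these markers per library were not analysed here, and their part in the mitochondrial values was not tested.

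The genes with the most similar values were found by their distance in fold change and SE from the median of a pair of members, not from either gene alone. Nearest to the median of mt-Nd5 and mt-Nd6, over both cHet tables and 188 candidates, were Elmod1 (distance 0.079), the kinase gene Mapk10 (0.107), Sox2ot (0.156), Tbc1d30 (0.182) and Nkain4 (0.209). Nearest to the median of mt-Nd4 and mt-Atp6, over the cHet against cKO table alone and 776 candidates, were Stk32c (0.053), Pkhd1l1 (0.081), C230057M02Rik (0.085), Ermn (0.106) and Gm14418 (0.108). Elmod1 had -1.33 (SE 0.35) against WT and -1.30 (SE 0.35) against cKO, and Stk32c had -1.65 (SE 0.55) against cKO, in the authors' deposited tables.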

How the data were processed

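Poly(A) RNA was enriched from RNeasy extracts, per the labels' protocols. Per the submitters' processing notes, the authors used cutadapt, featureCounts on mm10 and DESeq2; the sources used here do not give versions, aligner, annotation, strandedness, read length or how reads with several matches were handled. The files analysed are the authors' deposited tables of 3 comparisons. They hold log fold changes with SEs, read as log2 because DESeq2 reports that base, a score equal to their ratio, and adjusted p-values, all under 0.05, per the file headers. No values per library were analysed, so depth is unknown, no spread between embryos can be given, and count-based tests were not run. Fold changes are the first-named group over the second; signs matched the direction words in all 248, 4 and 971 rows.

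From the deposited statistics and adjusted p-values, the numbers of genes tested by the authors were recovered as 15465, 26976 and 13375, with all adjusted values reproduced; the recovery was tested on simulated data. Intervals of 95% used the normal distribution. Genes were placed with GENCODE M21, and its transcript sequences were searched with BLAST 2.17.0 for nuclear copies, at 95% identity over 300 bp unless stated otherwise, and for exact windows of 100 bases. The printed sequences come from those transcripts. The members and the 22 gene lists were chosen with earlier results of these data known, and the windows after seeing the sequences. Genes were named where they were members, among the 5 of a list with the smallest adjusted p in cHet against cKO, or nearest in fold change and SE. Eif2s3y, Polrmt and Tfam were named in addition. Coa3, Coa4, Cox14, Dhx30, Trnt1 and Malat1 were named as genes outside the lists. The software was matplotlib 3.10.9, SciPy 1.17.1, pandas 2.3.3 and NumPy 2.4.6 under Python 3.11.15.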

Additional observations from a re-analysis of the deposited data

How the results depend on the processing

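The count of mitochondrial genes listed in cHet against cKO fell from 4 to 2 at an adjusted p under 0.01, to 2 with Benjamini-Hochberg adjustment over the largest number of genes of the 3 comparisons, and to 1 with Bonferroni adjustment. In each case mt-Nd5 was left, and in the first 2 mt-Nd6 was left beside it. In cHet against WT the count of 2 fell to 1, mt-Nd5, with Bonferroni adjustment and was 2 under the other settings. Every member stayed listed at a minimum absolute log2 change of 0.5 or of 1. Intervals from a t distribution with 6 degrees of freedom excluded 0 for each listed value. Listing needed an absolute statistic of 2.91 or more, so this outcome was fixed by the choice of genes and is no check. Relaxing the search for nuclear copies to 90% identity over 100 bp raised the number of copies of the members from 3 to 7. At an adjusted p under 0.01, the genes of all lists that were listed fell from 61 to 14 in cHet against cKO and from 21 to 12 in cHet against WT. Windows of 50 bases, added after seeing the data, lowered the share without a copy in mt-Nd5 to 92.4%. Without values per library, leaving out a replicate was not run. No paired analysis was possible because the tables carry no replicate columns. The p-values rest on the spread between libraries as DESeq2 modelled it, with 3 libraries per group, and litter cannot be told apart within it.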
